A study of Mus musculus with 4 samples.

Results

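The genes described are 9 dual-specificity phosphatase genes, taken by symbol from the FPKM tables. They comprise 7 that encode MAP kinase phosphatases (Dusp6, Dusp4, Dusp5, Dusp1, Dusp7, Dusp10 and Dusp16) and 2 known as muscle-restricted, Dusp13 and Dusp27. All 9 were among the 13824 gene symbols listed, with 18 of the 36231 listed transcripts, and all 9 reached a mean of 1 FPKM (a fragment count divided by transcript length and by the library's fragment total) and so entered the test. The samples were 4 RNA-seq libraries of C2C12, a mouse myoblast line whose cells fuse into myotubes when serum is lowered. Every library came from cells given 30 nM siRNA with Lipofectamine and then kept for 48 h in a differentiation medium with 2% horse serum. The siRNA had a scrambled sequence in 2 libraries and targeted Mef2a in the other 2 (siMEF2A). The titles number the libraries 1 and 2 within each group, while the names of the deposited files number the scrambled libraries 2 and 3, and the labels name no separate cultures, so the spread that the p-values rest on may be technical.

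MAP kinase phosphatases switch off ERK, p38 and JNK kinases by removing the phosphates from the threonine and the tyrosine of their activation loop. Several are transcribed in response to the kinases they inactivate, and so act as negative feedback. In myoblasts ERK signalling is known for sustaining proliferation and p38 for driving differentiation, in part by phosphorylating MEF2 transcription factors. The series' title names DUSP6 as a gene regulated by p38 and MEF2, which is the question that the silencing of MEF2A addresses for this family.

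Dusp13 and Dusp27 fell when Mef2a was silenced, to 55.7% and 49.2% of their scrambled level, and none of the 7 MAP kinase phosphatase genes passed the test in either direction. Dusp6, which encodes a cytoplasmic phosphatase selective for ERK, and Dusp4, which encodes a nuclear MAP kinase phosphatase, were at 131% and 130% of scrambled, higher in each siMEF2A library than in each scrambled one. Dusp1, Dusp7, Dusp10 and Dusp16 were within the range of 97.7% to 107% of scrambled, with overlapping groups. A percentage of scrambled compares the group means of FPKM. Log2 fold changes are siMEF2A minus scrambled on the log2(FPKM + 1) scale, which understates changes of genes at low FPKM, and a call means an adjusted p under 0.05 in limma over all 11822 genes tested. Of the 9 genes 0 were called higher, where 0.406% of all genes tested were, and 2 were called lower, where 1.33% were.

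Stretches before the transcription start of 5 of these genes and of Dusp6 are shown, because they hold matches to sites read by MEF2 or by factors downstream of MAP kinases, or, for Dusp6, because the title names it. Counted from the start, those of Dusp27 and Dusp6 end at base -1. Those of Dusp16, Dusp5 and Dusp13 end at base -41 and that of Dusp1 at base -81. They are from RefSeq on GRCm38.p6, read 5′ to 3′ on the strand of the gene. RefSeq windows of 250 bases before to 50 bases after a start were matched by symbol for 8 of the 9 genes, all but Dusp4. Both strands of each window were searched for the MEF2 consensus, the CArG box consensus of serum response factor, the cyclic AMP response element TGACGTCA, the AP-1 site TGANTCA and the E-box CANNTG read by myogenic factors. Capitals mark every match.
Dusp27 (chr1:166127899-166128018, minus strand): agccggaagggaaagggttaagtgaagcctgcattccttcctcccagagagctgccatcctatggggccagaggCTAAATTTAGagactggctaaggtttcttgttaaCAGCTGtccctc
Dusp16 (chr6:134792669-134792788, minus strand): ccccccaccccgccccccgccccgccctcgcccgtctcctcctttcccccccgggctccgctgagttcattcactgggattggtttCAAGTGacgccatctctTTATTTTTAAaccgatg
Dusp6 (chr10:99262981-99263230, plus strand): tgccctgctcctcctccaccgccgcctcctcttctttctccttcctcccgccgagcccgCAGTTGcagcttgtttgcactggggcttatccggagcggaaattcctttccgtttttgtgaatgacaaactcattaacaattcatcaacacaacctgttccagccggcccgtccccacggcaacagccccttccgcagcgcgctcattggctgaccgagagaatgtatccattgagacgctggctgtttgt
Dusp5 (chr19:53528985-53529104, plus strand): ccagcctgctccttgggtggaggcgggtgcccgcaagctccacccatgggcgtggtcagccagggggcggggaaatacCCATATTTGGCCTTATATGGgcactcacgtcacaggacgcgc
Dusp1 (chr17:26508553-26508672, minus strand): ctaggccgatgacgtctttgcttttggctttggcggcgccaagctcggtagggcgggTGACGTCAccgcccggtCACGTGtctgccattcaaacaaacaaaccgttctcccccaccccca
Dusp13 (chr14:21748663-21748782, minus strand): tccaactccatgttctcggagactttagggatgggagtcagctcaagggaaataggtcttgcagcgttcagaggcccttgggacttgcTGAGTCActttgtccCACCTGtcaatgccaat

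The MEF2 consensus was found in the windows of Dusp27, as CTAAATTTAG from 46 to 37 bases before the start, and of Dusp16, as TTATTTTTAA from 57 to 48 bases before the start. It occurs in 3.19% of 32851 windows of the same length. Of this pair Dusp27 fell, while Dusp16 was at 107% of scrambled and was not called. Dusp5 held 2 adjoining CArG boxes, CCATATTTGG and CCTTATATGG, a motif found in 1.63% of windows. Dusp1 held the only full cyclic AMP response element among these genes (1.79% of windows), and the most upstream of the 4 Dusp13 windows held an AP-1 site, TGAGTCA (7.81% of windows). E-boxes, found in 72.3% of windows, were in the windows of Dusp27, Dusp16, Dusp7, Dusp6, Dusp13 and Dusp1 but not in those of Dusp5 and Dusp10. The Dusp27 window held the E-box CAGCTG from 12 to 7 bases before the start, between its MEF2 consensus and the start. No match to the MEF2 consensus was in the Dusp6 window, which says only that these letters are not in those 300 bases. A match describes the letters and does not show that a factor binds there.

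Depth relative to scrambled replicate 1, read from the commonest ratio among 600 genes at low FPKM, was 1.045 for the other scrambled library and 0.849 and 0.847 for the siMEF2A libraries, and rests on 7 to 14 genes. Some ratio is always the commonest, and how many genes would share one by chance was not computed. These values may therefore not be depths. Absolute depth was unknown, and no counting interval was computed. The targeted gene Mef2a was at 25.8 and 32.2 FPKM with scrambled siRNA, against 12.7 and 14.3 FPKM in siMEF2A, means of 29.0 ± 4.52 and 13.5 ± 1.08 FPKM (SD, n = 2 each; log2 fold change -1.05, limma adjusted p = 2.73e-05). Markers of skeletal myoblasts and myotubes were present, with 7 of 8 analysed and Myog, Des and Myod1 at 132, 237 and 32.0 FPKM in scrambled. Of 5 endothelial markers 0 were among the gene symbols listed, and of 5 leukocyte markers Cd68 and Lyz2 were, at no more than 1.78 FPKM. The rule for listing was not given, so a symbol that is not listed does not show a silent gene. Of 5 fibroblast markers 4 were tested, Dcn, Dpt, Lum and Pdgfra, at 242, 36.4, 18.7 and 2.15 FPKM in scrambled. The 2 smooth muscle markers tested, Acta2 and Smtn, were at 643 and 27.98 FPKM in scrambled. The 1 adipocyte marker tested, Fabp4, was at 1.92 FPKM. In the test of siMEF2A against scrambled 0 of these fibroblast, smooth muscle and adipocyte markers passed. Fabp4 was at 50.7% of scrambled (limma adjusted p = 0.0597), and Acta2 and Smtn were at 77.3% and 91.4%.

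In scrambled cells Dusp1 had the highest level of the 9 genes per length of transcript, at 31.8 ± 0.817 FPKM (SD, n = 2), and lay at percentile 77.1 of the genes tested. Dusp4, Dusp7, Dusp10 and Dusp6 followed at 8.47, 7.79, 7.13 and 6.67 FPKM, and each neighbour in that order overlapped the next in its libraries. Dusp13 at 3.94 and Dusp27 at 3.60 FPKM lay below all of these and overlapped each other. Dusp16 at 2.74 and Dusp5 at 2.21 FPKM were the lowest, at percentiles 15.4 and 12.4. With MEF2A silenced Dusp1 was again the highest, at 33.0 FPKM, and Dusp4 lay second without overlapping any of the others. Dusp13 and Dusp27 moved to the bottom, at 2.20 and 1.77 FPKM, below every library of Dusp5 and Dusp16.

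**Figure D1:**
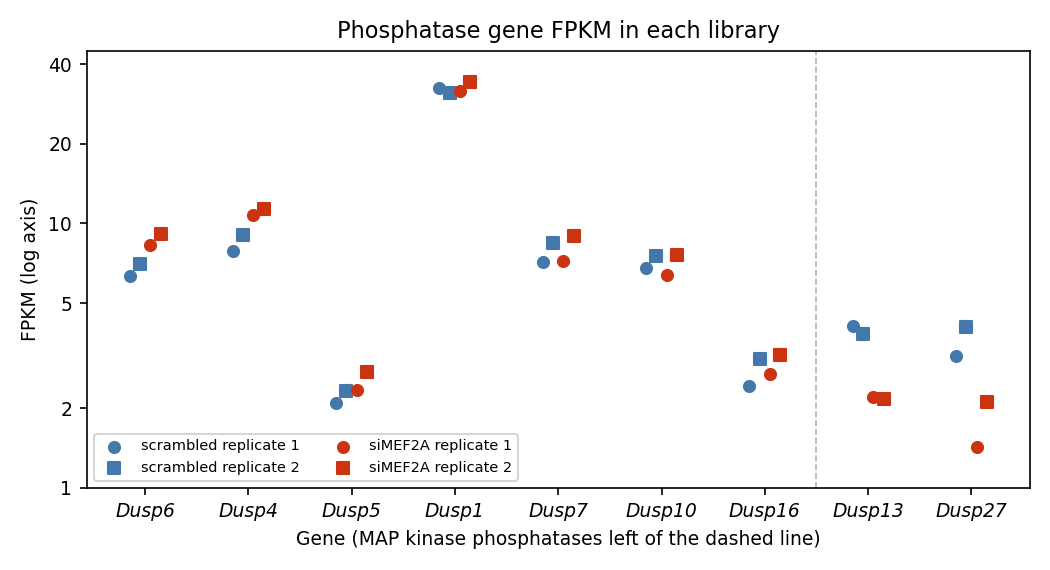
FPKM of each gene in each library, on a log axis, with scrambled libraries in blue and siMEF2A libraries in red (circles, replicate 1; squares, replicate 2). Dusp13 and Dusp27 were lower in both siMEF2A libraries than in both scrambled ones, Dusp6, Dusp4 and Dusp5 were higher in both, and the other 4 genes overlapped.

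Dusp6 and Dusp7 encode the cytoplasmic phosphatases that act on ERK. Dusp6 (ENSMUSG00000019960, chromosome 10, 99263231 to 99267489, plus strand, mm10) was listed with 1 protein-coding transcript of 2796 bases in 3 exons that encodes 381 codons. It was at 6.32 and 7.01 FPKM with scrambled siRNA, against 8.29 and 9.14 FPKM in siMEF2A. The groups did not overlap, and the gap between them, from 7.01 to 8.29 FPKM, was wider than the difference within either group. The log2 fold change was 0.34 (SE 0.15), a fold of 1.27 with a 95% confidence interval of 1.03 to 1.56, which missed the threshold (limma adjusted p = 0.592). It lay at percentile 97.4 of the log2 fold changes of all genes tested. Dusp7 (ENSMUSG00000053716, chromosome 9, 106368632 to 106375724, plus strand) was at 7.14 and 8.44 FPKM with scrambled siRNA, against 7.18 and 8.95 FPKM in siMEF2A. Its groups overlapped, each with a high and a low library, and its log2 fold change of 0.04 had an interval from -0.27 to 0.35. Of its 3 listed transcripts, Dusp7-201 carried 81.8% of the scrambled level. The other two, Dusp7-203 and ENSMUST00000174247, which was not found in the GENCODE annotation, were under 1 FPKM on average.

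The remaining ERK-acting genes, Dusp1, Dusp4 and Dusp5, encode phosphatases of the nucleus that are induced by growth factors or stress. Dusp4 (ENSMUSG00000031530, chromosome 8, 34807297 to 34819894, plus strand), which encodes a phosphatase of ERK and JNK, was at 7.86 and 9.08 FPKM with scrambled siRNA, against 10.8 and 11.3 FPKM in siMEF2A. Every siMEF2A value exceeded every scrambled value. Its log2 fold change was 0.35 (SE 0.15), a fold of 1.27 with an interval of 1.03 to 1.57, and did not pass (limma adjusted p = 0.556). Dusp5 (ENSMUSG00000034765, chromosome 19, 53529109 to 53542431, plus strand), which encodes a phosphatase specific for ERK, was at 2.09 and 2.33 FPKM with scrambled siRNA, against 2.34 and 2.74 FPKM in siMEF2A. The groups were separated only by the step from 2.33 to 2.34 FPKM, and the log2 fold change of 0.14 did not pass (limma adjusted p = 1.0). Both siMEF2A libraries above both scrambled ones were also seen in 18.8% of all genes tested, against 3 of these 9. Groups that did not overlap in either direction were found for 5 of the 9, and for 27.9% of all genes tested.

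Dusp1 (ENSMUSG00000024190, chromosome 17, 26505590 to 26562128, minus strand), the immediate-early gene of a phosphatase of p38, JNK and ERK, was at 32.4 and 31.3 FPKM with scrambled siRNA, against 31.7 and 34.3 FPKM in siMEF2A. The groups overlapped, and the 95% interval of its fold ran from 0.835 to 1.28. Its level was spread over 3 listed transcripts. The protein-coding Dusp1-202 held 61.0% to 66.0% of the gene's FPKM in each library. The others are annotated as retained introns: Dusp1-203 held 14.9% to 15.6% and Dusp1-204 18.3% to 23.5%. The groups overlapped for each of the 3.

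Dusp10 and Dusp16 encode phosphatases that prefer p38 and JNK over ERK. Dusp10 (ENSMUSG00000039384, chromosome 1, 184013302 to 184075636, plus strand) was at 6.76 and 7.50 FPKM with scrambled siRNA, against 6.37 and 7.57 FPKM in siMEF2A, a log2 fold change of -0.03. Replicate 2 was above replicate 1 in each group, and those differences were larger than the one between groups. Dusp16 (ENSMUSG00000030203, chromosome 6, 134715468 to 134792625, minus strand) was at 2.42 and 3.07 FPKM with scrambled siRNA, against 2.69 and 3.18 FPKM in siMEF2A, a log2 fold change of 0.07. The 95% intervals of the fold were 0.791 to 1.21 for Dusp10 and 0.851 to 1.30 for Dusp16. Dusp16-201, with a reading frame of 660 codons, held 90.8% to 98.3% of the gene's FPKM in each library. The minor transcript Dusp16-202, with a shorter reading frame of 338 codons, was at 0.104 and 0.0514 FPKM with scrambled siRNA, against 0.180 and 0.293 FPKM in siMEF2A. Its mean was under the 1 FPKM needed for a test.

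The same direction between replicates was seen through much of the family. In scrambled, 6 of the 7 MAP kinase phosphatase genes were higher in replicate 2 than in replicate 1, all but Dusp1, and in siMEF2A all 7 were. For Dusp6 the difference between replicates was 0.13 in log2(FPKM + 1) in each group, and for Dusp4 it was 0.19 in scrambled and 0.07 in siMEF2A. The median difference of all genes tested was 0.09 in scrambled and 0.07 in siMEF2A. Both medians are positive, so the direction is not particular to this family. The share of all genes higher in replicate 2 was not computed.

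**Figure D2:**
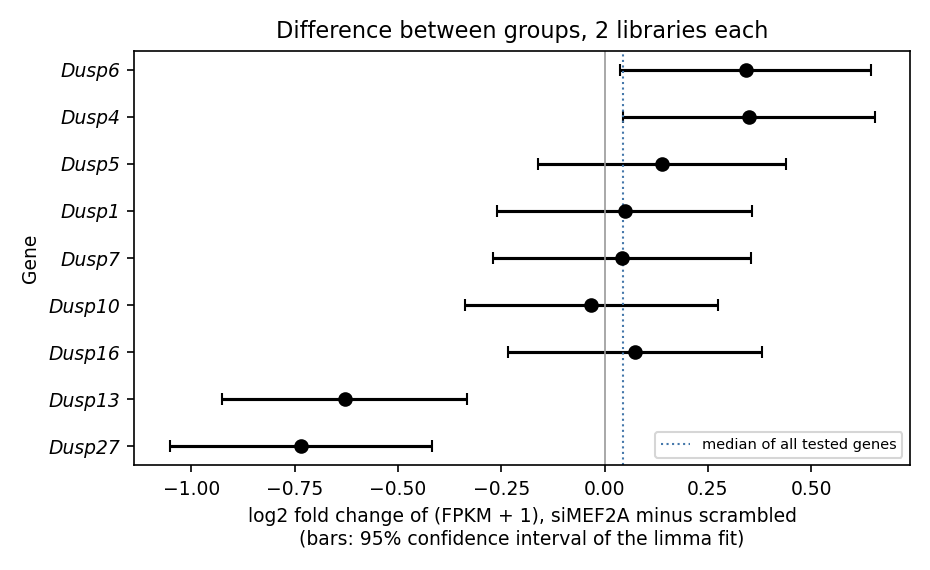
Log2 fold change of each gene (siMEF2A minus scrambled, log2(FPKM + 1)) from limma with its 95% confidence interval, 2 libraries a group; the dotted line is the median of all genes tested. The intervals of Dusp13 and Dusp27 lie below 0, those of Dusp6 and Dusp4 lie just above 0 before adjustment for the number of genes, and the other 5 cross it.

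Dusp27 and Dusp13 are the genes of this family known for expression in skeletal muscle. Dusp27 encodes a large protein related to the phosphatases that lacks catalytic activity and is needed for sarcomere assembly. Dusp27 (ENSMUSG00000026564, chromosome 1, 166098148 to 166127922, minus strand) was listed with 1 transcript of 6 exons that encodes 1138 codons, the longest reading frame among the 9 genes. It was at 3.15 and 4.05 FPKM with scrambled siRNA, against 1.43 and 2.11 FPKM in siMEF2A. Both siMEF2A values lay below both scrambled values, which held for 9.12% of all genes tested. The mean of 3.60 ± 0.632 FPKM fell to 1.77 ± 0.480 FPKM (SD over 2 libraries each), a log2 fold change of -0.73 (SE 0.16, limma adjusted p = 0.00456). It was not called without scrambled replicate 2 (limma adjusted p = 0.101) or siMEF2A replicate 1 (0.178).

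Dusp13 (ENSMUSG00000021768, chromosome 14, 21733394 to 21751181, minus strand) encodes small phosphatases of skeletal muscle and testis from alternative transcripts. It was at 4.08 and 3.81 FPKM with scrambled siRNA, against 2.21 and 2.18 FPKM in siMEF2A. Replicates lay close together in each group, and the groups did not overlap. The mean of 3.94 ± 0.189 FPKM fell to 2.20 ± 0.0271 FPKM (SD over 2 libraries each), a log2 fold change of -0.63 (SE 0.15, limma adjusted p = 0.0125). It was not called without scrambled replicate 1 (limma adjusted p = 0.139), siMEF2A replicate 1 (0.0614) or siMEF2A replicate 2 (0.0776). The direction was the same without any of the 4 libraries, for Dusp13 at log2 fold changes from -0.67 to -0.59 and for Dusp27 from -0.91 to -0.56.

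The Dusp13 value was a sum over 5 listed transcripts, none of which reached a mean of 1 FPKM over the 4 libraries. Dusp13-201 and Dusp13-206 start at 21748622 and 21748642, while Dusp13-203, Dusp13-202 and Dusp13-204 start inside the gene at 21742879, 21741519 and 21740401. Of the 5, 4 were lower in both siMEF2A libraries than in both scrambled ones, which held for 9.12% of all genes tested. The share among all transcripts was not computed. The 5 are parts of the gene sum already called lower, so the count adds no support to that call. From the upstream start, Dusp13-206, which is annotated as a target of nonsense-mediated decay, was at 1.02 and 1.26 FPKM with scrambled siRNA, against 0.259 and 0.729 FPKM in siMEF2A. Of the inner starts, Dusp13-202, with a reading frame of 316 codons, was at 1.02 and 0.846 FPKM with scrambled siRNA, against 0.581 and 0.565 FPKM in siMEF2A. Dusp13-203 was the exception, with overlapping groups at 0.371 and 0.218 FPKM with scrambled siRNA, against 0.291 and 0.271 FPKM in siMEF2A. Transcripts from the upstream and from the inner starts were thus among those lower, though they share exons and the split of reads between them is an estimate.

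**Figure D3:**
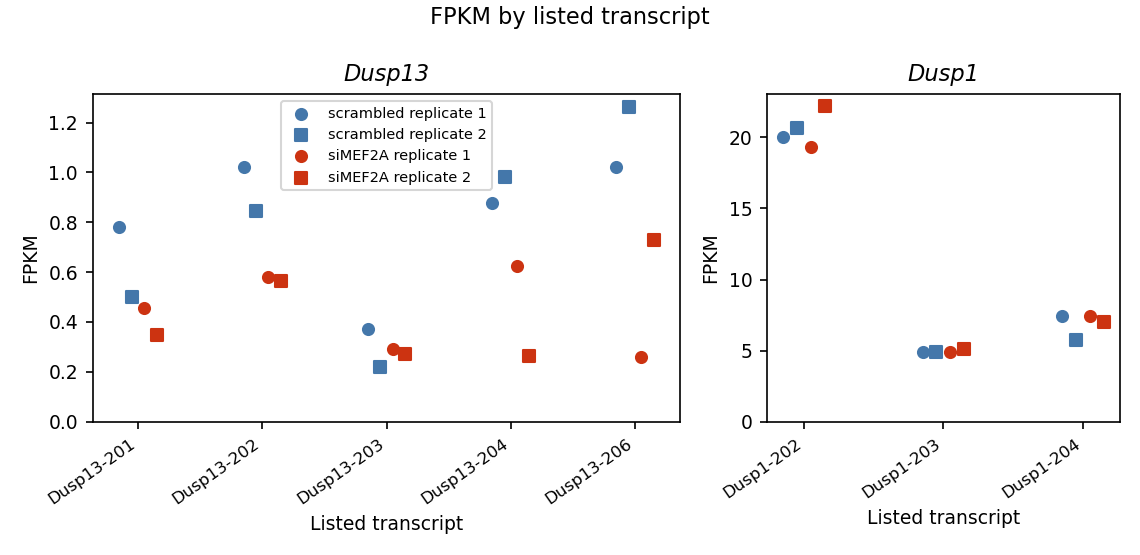
FPKM of each listed transcript of Dusp13 (left) and Dusp1 (right) in each library, with scrambled in blue and siMEF2A in red (circles, replicate 1; squares, replicate 2). For Dusp13, 4 of 5 transcripts were lower in both siMEF2A libraries, while the groups overlapped for each of the 3 Dusp1 transcripts. The 5 Dusp13 transcripts were not tested, as none reached a mean of 1 FPKM.

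Tested transcript by transcript, 10 of the 18 had a mean of at least 1 FPKM and 0 of them were called, where 0.225% of the 23599 transcripts tested were (0.0297% higher and 0.195% lower). Of the 10, only Dusp27 had an unadjusted p under 0.05 in limma (0.00667). The single Dusp27 transcript, whose FPKM are those of its gene, had an adjusted p of 0.448 in that limma fit. Its log2 fold change was -0.73 in each fit, and its standard error was 0.16 in the gene fit and 0.20 in the transcript fit.

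Genes of the muscle differentiation list moved with Dusp13 and Dusp27. Of 20 listed by name 16 were tested. Of these, 15 were called lower, where 1.33% of all genes tested were, and 0 higher, where 0.406% were. Their median log2 fold change was -1.10 against 0.04 over all genes tested. Mb, Myl4, Myh3 and Tnni2, which encode myoglobin, an embryonic myosin light chain, the embryonic myosin heavy chain and fast troponin I, had the smallest p and fell to 24.6%, 23.8%, 33.0% and 32.8% of scrambled. The summed FPKM of the list was 2472 and 2465 in scrambled and 1021 and 935 in siMEF2A. The log2 fold changes of Dusp27 and Dusp13, -0.73 and -0.63, were nearer 0 than that median, on a scale that understates changes at their low FPKM. Of the 7 listed markers of myoblasts and myotubes, all were lower in both siMEF2A libraries, which held for 9.12% of all genes tested. Of the 7, 1 passed, Myog, at 63.2% of scrambled, which is also among the 15 called on the muscle differentiation list. The summed FPKM of the 7 markers was 522 and 597 in scrambled and 354 and 416 in siMEF2A. Of 6 proliferation markers 0 passed, and Mki67 was at 101% of scrambled. For the 4 fibroblast markers tested, none of them called, the median of the log2 fold changes was 0.28. Dcn and Pdgfra were at 123% and 134% of scrambled with both siMEF2A libraries above both scrambled ones, while the groups overlapped for Lum and Dpt, at 83.9% and 123%. The part of these marker lists in the fall of Dusp13 and Dusp27 was not tested. In these bulk libraries fewer differentiated cells and less RNA per cell cannot be told apart.

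Set side by side within each library, the MAP kinase phosphatases and the muscle-restricted genes lay further apart in the siMEF2A libraries than in the scrambled ones. The mean log2(FPKM + 1) of the 7 MAP kinase phosphatases was 2.92 and 3.06 in scrambled and 3.05 and 3.21 in siMEF2A. That of Dusp13 and Dusp27 was 2.20 and 2.30 in scrambled and 1.48 and 1.65 in siMEF2A. The difference between the sets was 0.72 and 0.76 in scrambled and 1.57 and 1.56 in siMEF2A. Dusp13 and Dusp27 made up 10.0% and 10.3% of the summed FPKM of the 9 genes in scrambled and 5.0% and 5.26% in siMEF2A. Dusp6 was at 2.01 and 1.73 times the FPKM of Dusp27 in scrambled and 5.79 and 4.33 times in siMEF2A. These values are a description with no test, since the sets were chosen with earlier results known.

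**Figure D4:**
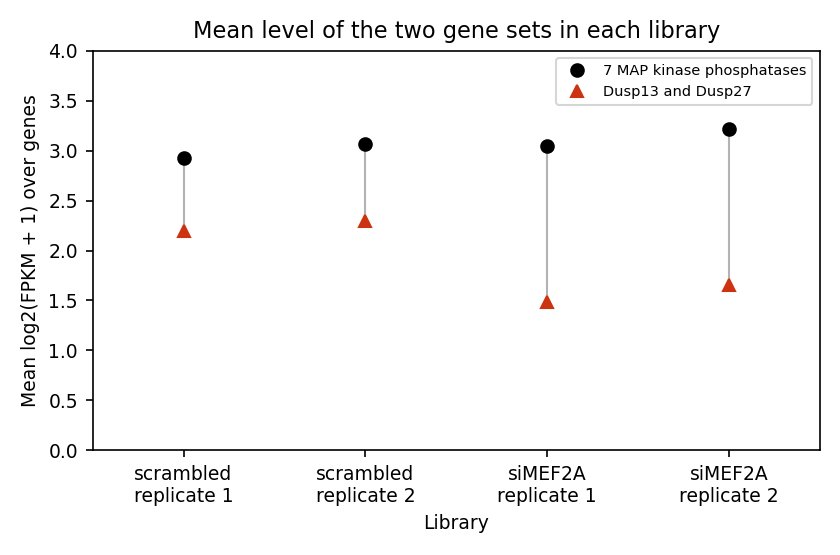
Mean log2(FPKM + 1) of the 7 MAP kinase phosphatase genes (black circles) and of Dusp13 and Dusp27 (red triangles) in each library, joined by a grey line. The distance between the sets was 0.72 and 0.76 in the scrambled and 1.57 and 1.56 in the siMEF2A libraries.

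The rest of the phosphatase family and of the MAP kinase cascades was read from lists of genes. Of 20 other dual-specificity phosphatase genes 10 were tested and 0 passed either way, where 1.73% of all genes tested did. The median of their log2 fold changes was 0.02. The smallest p was that of Dusp28, an atypical member, at 74.2% of scrambled (limma adjusted p = 0.625). Among the remaining MAP kinase phosphatases, Dusp2, the gene of another nuclear enzyme, was at 6.60 and 6.39 FPKM with scrambled siRNA, against 7.02 and 7.70 FPKM in siMEF2A. Dusp8 and Dusp9 were below the minimum, at no more than 0.835 and 0.310 FPKM in any library. Of 11 other phosphatase genes known to act on MAP kinases, such as subunits of protein phosphatase 2A, 7 were tested and 0 passed. The smallest p there was that of Ppp2cb, a catalytic subunit gene, at 112% of scrambled with overlapping groups (limma adjusted p = 1.0).

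Among the kinases that these phosphatases act on, 0 of 16 tested genes of the ERK cascade and 0 of 12 of the p38 and JNK cascades passed. Of all genes tested 1.73% passed, so a count of 0 in lists this short does not show that they were unchanged. The median log2 fold change was 0.05 in each. Both siMEF2A libraries lay above both scrambled ones for 5 of the 16 and 4 of the 12, and below for 1 of each (18.8% and 9.12% of all genes tested). Mapk14, the gene of p38 alpha, was at 15.9 and 19.0 FPKM with scrambled siRNA, against 21.6 and 23.4 FPKM in siMEF2A (log2 fold change 0.36, limma adjusted p = 0.549). Shc1, an adaptor between growth factor receptors and Ras, was at 127% of scrambled (limma adjusted p = 0.694). Of 22 tested genes that respond to ERK or feed back on it, 1 rose (0.406% of all genes tested) and 0 fell (1.33%). Their median log2 fold change was 0.12, and 10 of them had both siMEF2A libraries above both scrambled ones, where 18.8% of all genes tested had. Of those 10, Ccnd1, Emp1 and Egr1 were at 140%, 128% and 126% of scrambled and were not called. Another 2, Lif and Spred3, had both below (9.12% of all genes tested), at 76.9% and 91.8% of scrambled, and were not called. The gene that rose was Egr2, a zinc finger factor, at 1.10 and 0.796 FPKM with scrambled siRNA, against 1.76 and 2.02 FPKM in siMEF2A (limma adjusted p = 0.0322). That call was lost under 9 of the 14 alternatives that could be fitted, among them each of 3 other scalings (0.117 to 0.154) and the omission of scrambled replicate 2 (0.341) or siMEF2A replicate 2 (0.145). The Sprouty genes Spry1, Spry2 and Spry4, feedback inhibitors of the pathway, were at 110%, 102% and 115% of scrambled and were not called.

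Genes most alike in pattern were taken as those with the smallest Euclidean distance over the 4 libraries, after centring log2(FPKM + 1) on the scrambled mean, among 8614 genes whose mean reached 5 FPKM. For Dusp6 they were Shc1, Foxc1, a forkhead transcription factor gene, and Mt1, a metallothionein gene, at distances of 0.032, 0.032 and 0.036. These 3 were at 127%, 131% and 125% of scrambled, and none passed the test. For Dusp27 they were Chrnd, which encodes the delta subunit of the acetylcholine receptor, Gm25197, annotated as a microRNA, and Nes, which encodes the intermediate filament protein nestin, at distances of 0.15, 0.15 and 0.16. These 3 fell to 60.4%, 58.9% and 63.6% of scrambled, and Dusp27 to 49.2%. The distance was taken on the log2(FPKM + 1) scale, which understates changes at the low FPKM of Dusp27. Gm25197 spans 126 bases, a length at which FPKM is unstable. With 4 libraries many genes follow nearly the same pattern, and likeness says nothing about shared control.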

How the data were processed

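RNA was measured in 4 libraries, 2 scrambled and 2 siMEF2A, grouped by title. The deposited FPKM, given by the authors per Ensembl transcript, one file a library, were made with CASAVA, Trimmomatic, TopHat, Bowtie and Cufflinks on mm10, per the submitters' processing notes. Their versions, annotation, scaling and listing rule: not given in the sources used here. FPKM were summed per symbol. Left out were 28 small RNA symbols, recognized by the form of the symbol, and genes with a mean under 1 FPKM. Small RNA genes with other symbols, such as Gm25197, stayed in. Log2(FPKM + 1) of 11822 genes was tested by limma (version 3.58.1, under R 4.3.3). The test used lmFit and a trended eBayes, two-sided, with Benjamini-Hochberg adjustment. The fit had 2 residual and 30.2 prior degrees of freedom, so a gene's p rests mostly on spread pooled over genes. Transcripts were fitted likewise, with prior degrees of freedom of their own that are not given here. Transcript structures came from GENCODE M21 (97.3% of transcripts matched). Reads were not counted by strand as far as stated, so overlapping and antisense genes cannot be told apart. The genes described and the lists were chosen with earlier results of these data known. Named list genes were up to 4 called ones by smallest p, or the one with the smallest p where none was called. Genes named beyond these (Dusp2, Dusp8, Dusp9, the Sprouty genes and cell markers) were picked by their function. Lif, Spred3, Ccnd1, Emp1 and Egr1 were picked from their list after their values were seen. Alternatives covered pseudocount, filter, scaling, moderation, replicate block, transcript choice and leaving out each library.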

Additional observations from a re-analysis of the deposited data

How the results depend on the processing

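Under the 15 alternatives to the gene fit, all computed for Dusp13 and Dusp27 except the minimum of 5 FPKM (which leaves out both genes, so 0 were called) and, for Dusp13, its most abundant transcript alone (under the minimum, so 1 was called), their log2 fold changes stayed below 0. Without 1 library in turn, the number of the 9 genes called lower was 0 to 1 and the log2 fold change of Dusp13 was -0.67 to -0.59 and that of Dusp27 -0.91 to -0.56. With the replicate number as a block, 2 of the MAP kinase phosphatases were called higher, Dusp6 (log2 fold change 0.34, limma adjusted p = 0.0396) and Dusp4 (0.35, limma adjusted p = 0.0392), and so was Mapk14 of the p38 and JNK cascade (0.36, limma adjusted p = 0.0467). The block changed no other call of a named gene that was refitted under the alternatives. Same-numbered libraries deviated together across genes (r = 0.291, genes not being independent replicates), but the labels do not say that numbers pair libraries, and the numbers used are those of the titles, whereas the names of the deposited files number the scrambled libraries 2 and 3. The block also gave 219 genes higher and 288 lower.

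Differences near 0 changed sign without passing. Dusp1 was at -0.0042 and Dusp7 at -0.0064 under median-ratio scaling, and Dusp7 at -0.010 under quantile normalization. Leaving out 1 library gave -0.0083 to 0.11 for Dusp1, -0.099 to 0.18 for Dusp7, -0.14 to 0.077 for Dusp10, -0.051 to 0.20 for Dusp16 and -0.019 to 0.35 for Ppp2cb. In the transcript fit, median-ratio and upper-quartile scaling gave -0.011 and -0.016 for Dusp1-202 (ENSMUST00000025025), -0.0063 and -0.011 for Dusp1-203 (ENSMUST00000126178), -0.0047 and -0.0095 for Dusp7-201 (ENSMUST00000172306) and -0.0099 and -0.014 for Dusp16-201 (ENSMUST00000100857), and quantile normalization gave -0.00073 for Dusp1-203. Leaving out 1 library gave -0.072 to 0.12, -0.0024 to 0.052, -0.11 to 0.16 and -0.12 to 0.16 for these 4, -0.038 to 0.29 for Dusp1-204 (ENSMUST00000146077) and -0.14 to 0.077 for Dusp10 (ENSMUST00000048655).

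Over all genes 48 were called higher and 157 lower (76.6% of calls lower). The higher count was 29 with a pseudocount of 0.1, 30 without a filter, 14 under median-ratio and under upper-quartile scaling, 11 under quantile normalization, 25 without a trend, 73 with robust moderation and 23 with small RNA symbols kept, and the 3 scalings made 90.4% to 90.7% of calls lower, the replicate block 56.8%. The lower count was 97 at a minimum of 5 FPKM. Leaving out 1 library gave 43 to 77 higher, the most without scrambled replicate 2, and 136 to 165 lower. Over all transcripts 7 were called higher and 46 lower. The higher count was 3 with a pseudocount of 0.1, 0 without a filter, 31 at a minimum of 5 FPKM, 4 under each of the 3 scalings, 17 with robust moderation and 0 with the replicate block. The lower count was 0 without a filter, 101 at a minimum of 5 FPKM, 80 with robust moderation and 0 with the replicate block. Leaving out 1 library gave 29 to 105 higher and 50 to 217 lower. The cause of these changes was not tested. No depth was known, so the precision of low values such as those of the Dusp13 transcripts cannot be given.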
